A study of Mus musculus with 8 samples.

Results

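The genes described here make ribosomes in the nucleolus, and their mRNAs were measured in adipose precursors (APs) of mice fed a standard diet (SD) or a high-fat diet (HFD) for 3 days. The list names 45 genes. A gene was measured where a probe set on the array carries its symbol and no other, and where several did, the one with the highest mean over the 8 arrays was used. This left 42 measured genes, among 21789 probe sets with 1 symbol for 19938 genes in all. Noc2l, Ppan and Snhg1 had no such probe set. APs are stromal cells that give rise to adipocytes. They came from inguinal subcutaneous white fat (scAPs) and from perigonadal visceral white fat (viAPs) of male C57BL/6J mice aged 7 to 8 weeks with no other allele or agent named in the labels. Cells were depleted of CD45- and CD31-bearing cells on beads, selected for SCA-1, and lysed without culture. RNA was hybridised to Affymetrix Mouse Gene ST arrays, with RNA of 3 mice pooled for each, and 2 arrays for each of the 4 groups (SD scAP, HFD scAP, SD viAP and HFD viAP). The labels number the arrays 1 to 8, and these numbers only name them. Because mice were pooled, the spread between 2 arrays is that between pools, not between single mice.

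Ribosome synthesis starts when RNA polymerase I transcribes the ribosomal DNA into 1 long precursor. The growing precursor is bound by the small subunit processome, a large particle that folds and cuts it, while small nucleolar ribonucleoproteins (snoRNPs) guide the chemical modification of the rRNA: box C/D particles direct methylation and box H/ACA particles direct pseudouridylation. Further sets of assembly factors then mature the small and the large subunit on their way to the cytoplasm. Cells that grow and divide raise the output of this pathway, and the transcription factor MYC is known to activate many of its genes.

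Several features of the arrays bear on the values below. The adipose precursor markers Pdgfra and Cd34 were high on all 8 arrays, while Ly6a, which encodes SCA-1, was not measured by a probe set of its own. Of 9 precursor markers measured 2 rose in viAPs, Itgb1 and Pdgfrb, and Pdgfrb also rose in scAPs. The array labelled SD viAP 4 stood apart from its partner. Dpp4, a marker of interstitial progenitors, had a log2 level of 8.55 on SD viAP 3 and 9.98 on SD viAP 4. Its levels on SD scAP 1 and 2 were 11.41 and 10.62. The level on SD viAP 4 thus lay between those of SD viAP 3 and the SD scAP arrays. Dpp4 itself did not pass between the depots on either diet (limma). Among the 329 probe sets that passed between HFD viAPs and HFD scAPs, SD viAP 4 was nearer to the HFD scAP mean than to the HFD viAP mean in 266, SD viAP 3 in 126, and SD scAP 1 and 2 in 275 and 283. The depot label of SD viAP 4 is therefore in doubt, which bears on each SD viAP mean and each diet change in viAPs given below. The array was kept in its labelled group, and the calls in viAPs were also counted without it, a choice made for the lists other than the 42 genes after seeing the data. Of 11 endothelial markers 6 rose on HFD in scAPs (Pecam1 by 1.43 on the log2 scale, adjusted p = 0.015 from limma), and their summed log2 level was 10.77 to 10.90 on SD and 11.66 to 11.67 on HFD. In viAPs 2 of the 11 rose, Eng and Tek, and 8 had a negative change, with a median over the 11 of -0.28. For 5 of them both HFD viAP arrays lay below both SD viAP arrays, and of the 4 with an unadjusted p under 0.05, 2 were lower. The summed level was 10.68 to 10.76 on SD and 11.13 to 11.24 on HFD. Of 7 blood and macrophage markers measured and 7 mesothelial markers, 0 passed the test in either depot (limma, unadjusted p under 0.05: 2 of 7 blood markers in each depot, and of the mesothelial markers 0 in viAPs and 1 in scAPs). Of 4 erythroid markers only Alas2 was measured. It changed by -0.45 in viAPs (adjusted p = 0.095, limma) and by 0.13 in scAPs (adjusted p = 0.72, limma). Hba-a1, Hbb-bt and Hbb-bs had no probe set of their own. The paper's list of genes changed in scAPs has Hba-a2 and Hbb-bs higher on HFD. Of 8 mature adipocyte markers 2 fell in viAPs, Plin1 and Retn, and of 9 pericyte and smooth muscle markers 2 rose and 2 fell in viAPs while 1 rose in scAPs. Without SD viAP 4, Itgb1 alone of these markers passed in viAPs (adjusted p = 0.049, limma). The part of these shifts in the results below was not tested. In RNA from bulk cells, fewer cells of a type and less RNA per cell cannot be told apart.

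In viAPs 10 of the 42 genes rose on HFD and 0 fell (limma, adjusted p under 0.05): Nop58, Ncl, Gnl3, Ddx21, Utp4, Wdr43, Utp20, Nop14, Ltv1 and Gas5. The genes that rose spanned most roles on this list but not all of them, with none among the box H/ACA proteins and none among the 12 large subunit factors measured. On a second list, described below, 5 of 44 further large subunit factors and 1 of 9 snoRNP assembly factors rose in viAPs. Among all probe sets tested 8.45% rose, and among the 7315 that exceeded 7 on the log2 scale on 3 or more arrays (called well expressed below) 20.6% rose, while 1.95% and 1.11% fell. The share of the 42 genes that rose, 23.8%, was thus close to that of the well expressed probe sets. Of the 42 genes 32 were themselves well expressed. Of these 32 genes 8 rose in viAPs, and their median change was 0.36 with all 8 arrays. Without SD viAP 4, 0 of the 42 genes passed, 14 had an unadjusted p under 0.05, and the smallest adjusted p was 0.063 (limma). The median change without that array was 0.16 for the 42 genes and 0.28 for the 7315 probe sets. With all 8 arrays the median change of the 42 genes on the log2 scale was 0.30, with a range of -0.21 to 1.30. The median of the 7315 probe sets was then also 0.30. Of the 42 genes 36 had a positive change and 6 a negative one with all 8 arrays. Of the 7315 probe sets 5706 had a positive change and 1609 a negative one.

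**Figure D1:**
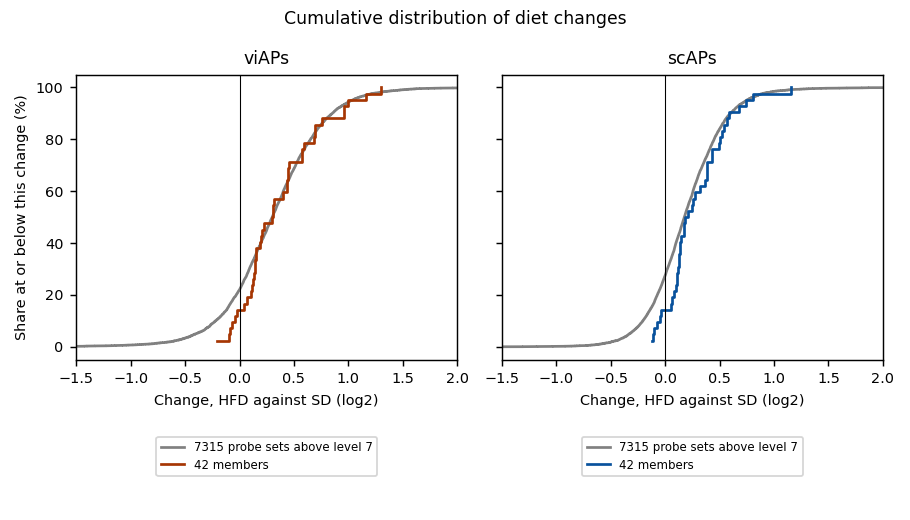
Cumulative share of genes (vertical axis, %) at or below each log2 change between HFD and SD (horizontal axis), for the 42 ribosome biogenesis genes (coloured steps) and the 7315 well expressed probe sets (grey, log2 level above 7 in 3 or more arrays), in viAPs (left) and scAPs (right). In viAPs the curves cross near their common median of 0.30, and in scAPs the genes' median is 0.20 against 0.18. The 42 genes include 10 that were not well expressed, and the medians of the other 32 are 0.36 and 0.28.

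In scAPs 1 of the 42 genes rose, Nop58, and 0 fell. The background was 1.06% of all probe sets and 2.67% of the well expressed ones, with 0.11% and 0.109% lower. The genes' median change was 0.20 and ranged from -0.12 to 1.16, beside 0.18 for the well expressed probe sets. Over the 32 genes that were themselves well expressed the median was 0.28. At an unadjusted p under 0.05, 10 genes were higher in scAPs (23.8%) and 16 in viAPs (38.1%), beside 25.6% and 41.4% of the well expressed probe sets and 10.8% and 17.8% of all. When diet was averaged over both depots, 12 genes rose and 0 fell, the same 10 as in viAPs plus Fbl and Bop1, against a background of 12.1% of all probe sets and 29.8% of the well expressed ones higher, and 4.96% and 2.57% lower. The averaged comparison uses the same 8 arrays and adds no independent sample.

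Counted without a test, both HFD viAP arrays lay above both SD viAP arrays for 32 of the 42 genes. The same held for 28.9% of all probe sets and 62.2% of the well expressed ones. In scAPs both HFD arrays lay above both SD arrays for 21 genes, beside 21.7% of all probe sets and 44.3% of the well expressed ones. The reverse order, which 31.2% of all and 12.1% of well expressed probe sets had in viAPs and 18.8% and 9.49% in scAPs, was found for 1 gene in each depot, Nop16, which encodes a large subunit assembly factor. Its log2 levels were 8.01 and 7.69 on the SD viAP arrays and 7.62 and 7.66 on the HFD viAP arrays, and its change of -0.21 did not pass the test (adjusted p = 0.36, limma).

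**Figure D2:**
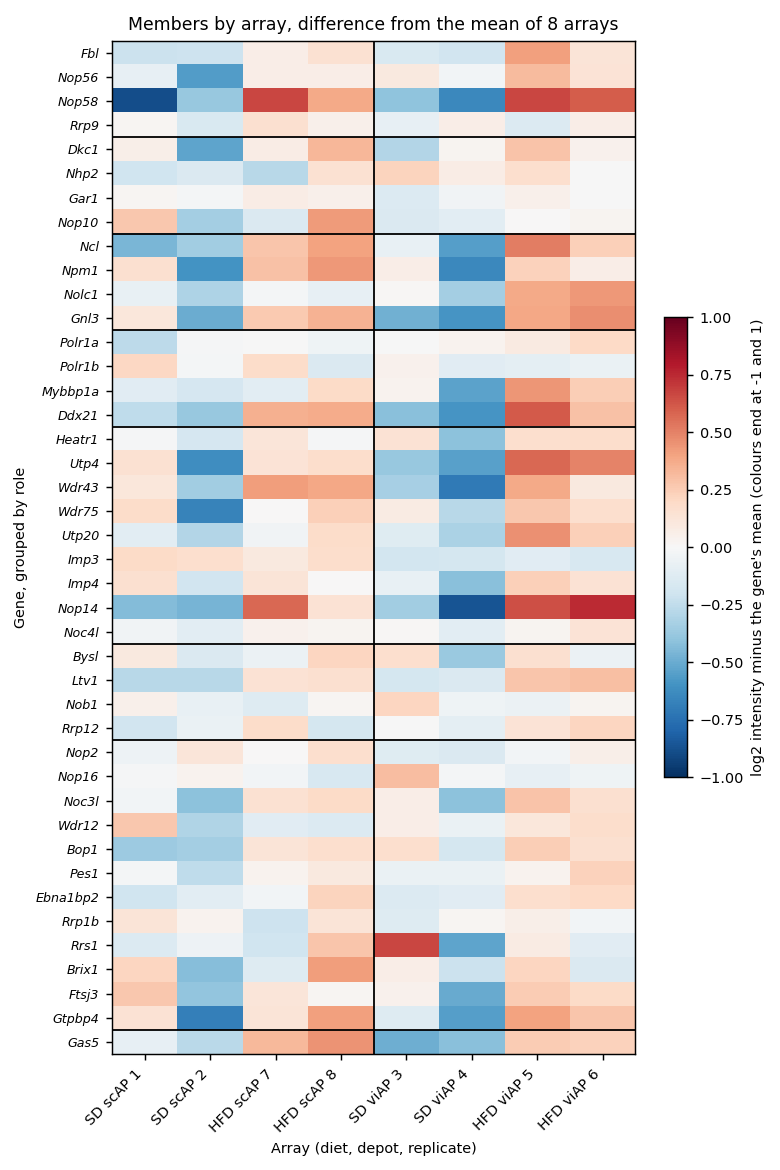
Log2 level of each of the 42 genes (rows, grouped by role) on each of the 8 arrays (columns), as the difference from the gene's own mean over the 8 arrays. Red is above and blue below the mean, with colours ending at -1 and 1. The darkest red and blue cells lie in the rows of Nop58 and Nop14.

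Of the 4 box C/D proteins measured 1 rose. Fbl, Nop56 and Nop58 are core proteins of the methylation particles, while Rrp9 belongs to a box C/D particle that acts in cleavage of the precursor rRNA. Nop58 had log2 levels of 9.46 and 9.22 on SD viAP 3 and 4 and of 10.53 and 10.47 on HFD viAP 5 and 6. In scAPs the levels were 8.98 and 9.49 on SD and 10.53 and 10.25 on HFD. All 4 HFD arrays were above all 4 SD arrays. The change was 1.16 in viAPs (standard error 0.19, adjusted p = 0.012, limma) and 1.16 in scAPs (standard error 0.19, adjusted p = 0.036). Fbl encodes fibrillarin, the methyltransferase itself. It was at 7.30 and 7.26 on SD and 7.86 and 7.58 on HFD in viAPs, and at 7.24 and 7.25 on SD and 7.52 and 7.61 on HFD in scAPs. Its groups did not overlap in either depot, but the change of 0.44 in viAPs (adjusted p = 0.073) and of 0.32 in scAPs (adjusted p = 0.29) did not pass the test, and only their average did (0.38, adjusted p = 0.030, limma). A separate probe set for Fbl gave 0.26 in viAPs and 0.25 in scAPs, neither of which passed. Nop56, the partner of Nop58 in the particle, changed by 0.19 in viAPs (adjusted p = 0.48) and 0.38 in scAPs (adjusted p = 0.31), short of the threshold, and Rrp9 had changes of -0.03 and 0.17.

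Of the 4 box H/ACA proteins 0 passed the test in either depot, and the count at an unadjusted p under 0.05 was also 0 in each (limma). Their median change was 0.13 in viAPs and 0.14 in scAPs. Dkc1, the pseudouridine synthase of the particle, was at 7.38 and 7.71 on SD and 7.97 and 7.72 on HFD in viAPs, and at 7.73 and 7.15 on SD and 7.75 and 8.01 on HFD in scAPs. The HFD arrays were above the SD arrays in both depots, by margins smaller than the gaps between arrays of a group. Nop10, a small structural protein of the same particle, was at 7.79, 7.83, 7.94 and 7.97 across the viAP arrays 3 to 6, an increase of 0.14 that did not pass (adjusted p = 0.71). On the scAP arrays it was at 8.20 and 7.60 on SD and 7.79 and 8.36 on HFD, so the groups overlapped.

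Abundant nucleolar proteins had the highest median change of any group with more than 1 gene, 0.63 in viAPs and 0.54 in scAPs, and 2 of the 4 rose in viAPs. Without SD viAP 4 the 4 changes in viAPs ran from 0.08 for Npm1 to 0.90 for Gnl3. Gnl3 encodes nucleostemin, a nucleolar GTP-binding protein of dividing and stem cells. Its log2 levels were 7.57 and 7.46 on SD and 8.43 and 8.51 on HFD in viAPs, and 8.16 and 7.55 on SD and 8.31 and 8.40 on HFD in scAPs. It rose by 0.96 in viAPs (standard error 0.19, adjusted p = 0.020, limma). In scAPs the 2 SD arrays were 0.61 apart, and the change of 0.50 did not pass (adjusted p = 0.24). Ncl encodes nucleolin, which binds nascent precursor rRNA. It was at 9.30 and 8.82 on SD and 9.88 and 9.61 on HFD in viAPs, and at 8.92 and 9.03 on SD and 9.65 and 9.77 on HFD in scAPs. The lowest HFD array was above the highest SD array in each depot. The change was 0.69 in viAPs (standard error 0.18, adjusted p = 0.047) and 0.74 in scAPs (adjusted p = 0.086, limma), so the call in viAPs was close to the threshold. Npm1, nucleophosmin, a histone and ribosome chaperone, was at 9.12 and 8.41 on SD and 9.28 and 9.12 on HFD in viAPs, and at 9.22 and 8.46 on SD and 9.35 and 9.49 on HFD in scAPs. One array of each SD group was far below its partner, and neither 0.44 (adjusted p = 0.33) nor 0.58 (adjusted p = 0.34) passed. Nolc1, a chaperone of snoRNPs, changed by 0.57 in viAPs (adjusted p = 0.051), just short of the threshold, and by 0.14 in scAPs (adjusted p = 0.72).

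**Figure D3:**
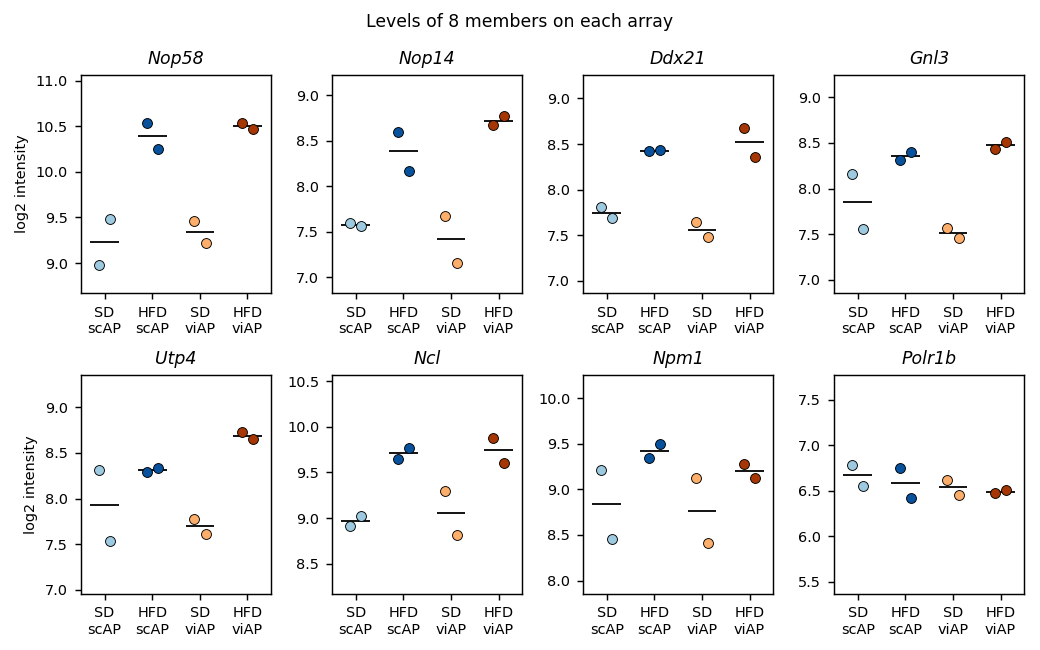
Log2 level (vertical axis) of 8 of the genes on every array, by diet and depot, with points for single arrays and lines for the mean of the 2 arrays in a group. All panels span the same height. Nop58, Nop14 and Ddx21 are higher on HFD in both depots without overlap, Utp4 overlaps in scAPs, and Polr1b overlaps in both depots.

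In the group around ribosomal DNA transcription, 1 of 4 genes rose, and it was not a polymerase subunit. Polr1b, the second largest subunit of RNA polymerase I, was at 6.61 and 6.46 on SD and 6.48 and 6.51 on HFD in viAPs, and at 6.78 and 6.55 on SD and 6.75 and 6.43 on HFD in scAPs. The groups overlapped in both depots, with changes of -0.05 (adjusted p = 0.87) and -0.08 (adjusted p = 0.85). Polr1a, the largest subunit, changed by 0.12 in each depot and did not pass. Ddx21 is an RNA helicase that links polymerase I transcription with rRNA processing. It was at 7.64 and 7.48 on SD and 8.68 and 8.36 on HFD in viAPs, and at 7.81 and 7.69 on SD and 8.42 and 8.43 on HFD in scAPs. All HFD arrays were above all SD arrays, and the gene rose by 0.96 in viAPs (standard error 0.15, adjusted p = 0.0098, limma), while 0.68 in scAPs did not pass (adjusted p = 0.066). Mybbp1a, a nucleolar regulator of transcription, was at 7.66 and 7.09 on SD and 8.06 and 7.87 on HFD in viAPs, and at 7.51 and 7.45 on SD and 7.52 and 7.81 on HFD in scAPs. Its change of 0.59 in viAPs did not pass (adjusted p = 0.094), nor did 0.19 in scAPs (adjusted p = 0.70).

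The small subunit processome held the most genes that rose, 4 of 9 in viAPs and 0 of 9 in scAPs. For all 9 the HFD viAP arrays lay above the SD viAP arrays, and the median change was 0.44 in viAPs and 0.27 in scAPs. Of the well expressed probe sets 62.2% had that order in viAPs and 20.6% rose there. Among all probe sets the shares were 28.9% and 8.45%. The median change of the well expressed probe sets was 0.30 in viAPs and 0.18 in scAPs. Without SD viAP 4 the middle of the 9 changes in viAPs was 0.26, that of Imp4, beside a median of 0.28 for the well expressed probe sets. Nop14, which is needed to form the processome and the small subunit, had the largest change of the whole list. Its log2 levels were 7.68 and 7.16 on SD and 8.67 and 8.77 on HFD in viAPs, and 7.59 and 7.56 on SD and 8.60 and 8.17 on HFD in scAPs. All HFD arrays were above all SD arrays. It rose by 1.30 in viAPs (standard error 0.20, adjusted p = 0.0099, limma), and the change of 0.81 in scAPs did not pass (adjusted p = 0.090). Utp4 belongs to the part of the processome that binds first and is linked with ribosomal DNA transcription. It was at 7.78 and 7.61 on SD and 8.73 and 8.65 on HFD in viAPs. In scAPs it was at 8.31 and 7.54 on SD and 8.29 and 8.34 on HFD, so that SD scAP 1 was level with the HFD arrays. It rose by 0.99 in viAPs (standard error 0.22, adjusted p = 0.030, limma), and 0.39 in scAPs did not pass (adjusted p = 0.43). Wdr43, of the same subcomplex, rose by 0.76 in viAPs (7.50 and 7.13 on SD, 8.21 and 7.93 on HFD, adjusted p = 0.045). Utp20 rose by 0.57 there (6.32 and 6.13 on SD, 6.91 and 6.69 on HFD, adjusted p = 0.049). Both calls lay at the edge of the threshold. The others, Heatr1, Wdr75, Imp3, Imp4 and Noc4l, ran from 0.04 for Imp3 to 0.44 for Imp4 in viAPs and did not pass. Of 35 further processome factors on a second list, described below, 0 rose in either depot. Their median change was 0.22 in viAPs and 0.07 in scAPs.

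Among the 4 factors of late small subunit maturation 1 rose in viAPs. Ltv1, which accompanies the small subunit out of the nucleus, was at 6.25 and 6.29 on SD and 6.70 and 6.73 on HFD in viAPs, and at 6.15 and 6.15 on SD and 6.57 and 6.58 on HFD in scAPs. Arrays of a group were within 0.04 of each other and the diets were well apart in both depots. The change was 0.45 in viAPs (standard error 0.12, adjusted p = 0.045, limma) and 0.43 in scAPs (adjusted p = 0.11), so the latter did not pass. Rrp12, an export factor for both subunits, was at 6.63 and 6.54 on SD and 6.77 and 6.85 on HFD in viAPs, and at 6.44 and 6.57 on SD and 6.82 and 6.46 on HFD in scAPs. Neither 0.22 (adjusted p = 0.35) nor 0.13 (adjusted p = 0.71) passed. Bysl had changes of 0.15 and 0.10, and Nob1, the nuclease that makes the final cut of the small subunit rRNA, of -0.10 and -0.04.

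Of the 12 large subunit factors measured 0 passed in either depot, and their median change was 0.17 in both. At an unadjusted p under 0.05 the count was 2 of 12 in viAPs and 1 of 12 in scAPs. Gtpbp4, a GTP-binding factor of early large subunit particles, had the largest change of the group. It was at 7.72 and 7.30 on SD and 8.25 and 8.13 on HFD in viAPs, and at 8.00 and 7.17 on SD and 7.98 and 8.26 on HFD in scAPs. SD scAP 1 and SD scAP 2 were 0.83 apart, and neither 0.68 in viAPs (adjusted p = 0.13) nor 0.54 in scAPs (adjusted p = 0.35) passed. Ftsj3, an rRNA methyltransferase, was at 7.73 and 7.18 on SD and 7.94 and 7.88 on HFD in viAPs, and at 7.95 and 7.29 on SD and 7.80 and 7.70 on HFD in scAPs. The scAP groups overlapped, and neither 0.45 (adjusted p = 0.24) nor 0.13 (adjusted p = 0.84) passed. Pes1, Bop1 and Wdr12 form 1 complex that is needed for large subunit processing. Their changes were 0.20, 0.21 and 0.14 in viAPs and 0.21, 0.50 and -0.11 in scAPs, and only Bop1 passed in the average over depots (0.35, adjusted p = 0.047, limma). Rrs1 had the largest gap between the 2 arrays of a group of any gene on the list, 1.20 between SD viAP 3 and SD viAP 4.

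**Figure D4:**
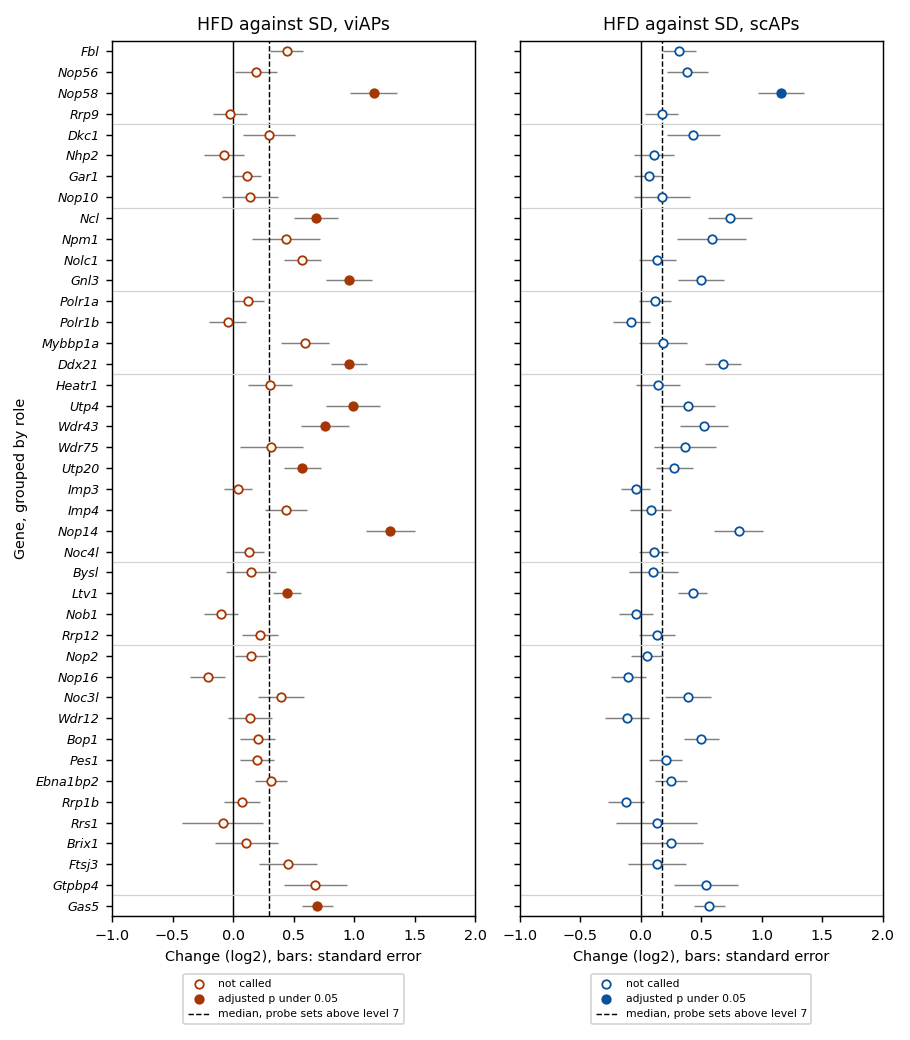
Log2 change between HFD and SD of the 42 genes, in viAPs (left) and scAPs (right), with bars for the standard error of the fit. Filled points have an adjusted p under 0.05, the dashed line is the median of the 7315 well expressed probe sets (0.30 and 0.18), and grey lines part the roles. Filled points number 10 in viAPs and 1 in scAPs.

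Gas5 is a long non-coding RNA whose introns hold box C/D snoRNAs and whose spliced RNA is rapidly broken down in growing cells. Its brightest probe set, 10351037, was at 10.66 and 10.72 on SD and 11.39 and 11.38 on HFD in viAPs, and at 11.06 and 10.87 on SD and 11.47 and 11.59 on HFD in scAPs. The diets did not overlap in either depot. It rose by 0.70 in viAPs (standard error 0.13, adjusted p = 0.016, limma), and 0.57 in scAPs did not pass (adjusted p = 0.072). The other 3 probe sets of Gas5 went different ways and none passed. Probe set 10351026, also bright, was at 10.01 and 9.53 on SD and 9.56 and 9.28 on HFD in viAPs, a change of -0.35 (adjusted p = 0.37). Probe set 10351035 had changes of -0.42 in viAPs and -0.43 in scAPs, and 10351039, the dimmest, of 0.15 and 0.55. The call for Gas5 therefore belongs to 1 probe set of 4. Which parts of the transcript the probe sets cover was not analysed here.

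**Figure D5:**
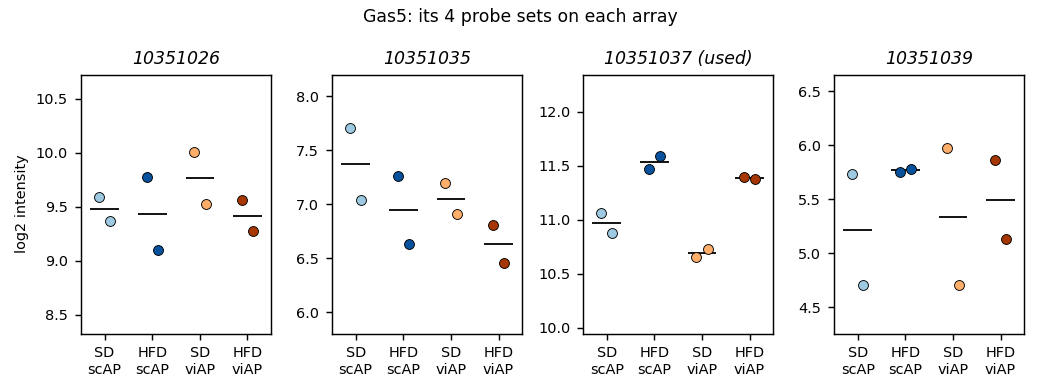
Log2 level (vertical axis) of the 4 Gas5 probe sets on every array, by diet and depot, with lines for group means. Panels span the same height. Probe set 10351037 is higher on HFD in both depots (changes of 0.70 and 0.57), whereas 10351026 and 10351035 have lower viAP means on HFD (changes of -0.35 and -0.42).

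Several of the genes carry snoRNA genes inside their own span, which was looked up after their values had been seen and is given as a description. By their RefSeq positions on GRCm38.p6, without regard to strand, 9 of the 45 genes contain 36 snoRNA genes. The 7 of these that were measured are Nop56, Nop58, Dkc1, Ncl, Gnl3, Wdr43 and Gas5. Of these 7 genes 5 rose in viAPs, and all 7 had both HFD arrays above both SD arrays in each depot. That order was found for 62.2% of the well expressed probe sets in viAPs and 44.3% in scAPs. Among all probe sets the shares were 28.9% and 21.7%. The median change of the 7 genes was 0.70 in viAPs and 0.52 in scAPs. Of the other 35 genes 5 rose in viAPs, and the medians were 0.21 and 0.14. Over the whole table, 27% of 189 well expressed genes that contain a snoRNA rose in viAPs, and 21.1% of 6350 that contain none. In scAPs the shares were 2.65% and 2.8%. When SD viAP 4 was left out, 0 of the 7 and 0 of the 35 passed in viAPs (limma, 5 and 9 at an unadjusted p under 0.05), with medians of 0.57 and 0.14.

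The snoRNAs themselves were measured for 6 of the 36, and 2 of the 6 rose in viAPs and 0 in scAPs. Among all probe sets 8.45% rose in viAPs and 1.06% in scAPs, and among the well expressed ones 20.6% and 2.67%. Snord57, a box C/D RNA inside Nop56, was at 8.66 and 8.43 on SD and 9.53 and 9.59 on HFD in viAPs, an increase of 1.01 (adjusted p = 0.0085, limma). Its host Nop56 did not pass there. Snord22, inside Snhg1, rose by 0.91 in viAPs (adjusted p = 0.018), and its host was not measured. Snord47, inside Gas5, was at 8.23 and 8.20 on SD and 9.26 and 9.03 on HFD in viAPs, and 0.93 fell just short (adjusted p = 0.057). Snord82, inside Ncl, had a change of -0.20 in viAPs, opposite in sign to its host. Snora75, also inside Ncl, and Snord53, inside Wdr43, had changes of 0.94 and 0.31 and did not pass. Both were dim, at log2 levels of 4.58 to 6.09 and of 4.70 to 5.13 over the 8 arrays. On HFD viAP 5 and 6 Snora75 was at 6.09 and 5.29. Of the 6, 0 passed without SD viAP 4 (limma, 3 at an unadjusted p under 0.05), and Snord57 and Snord22 had changes of 0.90 (adjusted p = 0.058) and 0.80 (adjusted p = 0.11).

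The promoters were searched for CACGTG, the core of the E-box that MYC and other factors of its class are known to bind. The windows ran from 250 bases before to 50 bases after each RefSeq start on GRCm38.p6, and the motif reads the same on both strands. Of the 40 genes with a window 8 held it in at least 1 window (20%), beside 8.09% of 27025 genes in all and 9.5% of 15614 genes tested on the arrays. These 8 stretches are shown because they include 4 of the 10 genes that rose in viAPs. Each is printed on the gene's strand with the motif in capitals and up to 12 bases on each side, and is shorter where the window ends.
Utp4, chr8:106893643-106893672, plus strand: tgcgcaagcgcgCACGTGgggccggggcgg
Wdr43, chr17:71616220-71616249, plus strand: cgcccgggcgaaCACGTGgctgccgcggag
Utp20, chr10:88826765-88826789, minus strand: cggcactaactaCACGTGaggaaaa
Ltv1, chr10:13193092-13193121, minus strand: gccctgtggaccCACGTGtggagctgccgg
Mybbp1a, chr11:72441355-72441376, plus strand: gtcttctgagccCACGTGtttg
Imp4, chr1:34439696-34439725, plus strand: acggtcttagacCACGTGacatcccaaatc
Nop2, chr6:125131811-125131840, plus strand: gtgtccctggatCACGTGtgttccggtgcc
Pes1, chr11:3963965-3963994, plus strand: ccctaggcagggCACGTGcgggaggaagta

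The first 4 rose in viAPs and the last 4 did not pass. In 6 of the 8 the motif lay just after the start, beginning at base 16 in Utp4, 18 in Wdr43, 38 in Utp20, 29 in Ltv1, 41 in Mybbp1a and 3 in Pes1, counted with the start as base 1. In Imp4 and Nop2 it lay before the start, at -121 and -60. Of the genes with a window that rose in viAPs 4 of 10 held the motif (40%), and of those that did not pass 4 of 27 (14.8%). The 8 genes with the motif had a median change of 0.51 in viAPs, from 0.15 to 0.99, and the 29 without it of 0.19. In scAPs the medians were 0.24 and 0.17. Leaving out SD viAP 4 gave viAP medians of 0.39 and 0.14, and 0 genes passed with or without the motif (4 of 8 and 8 of 29 at an unadjusted p under 0.05). Nop58, Nop14 and Ddx21, which had the lowest adjusted p-values in viAPs, had a window without the motif, and Fbl, Npm1, Rrp12, Bop1 and Rrs1 were not searched. The match of letters is a description and shows no binding.

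The response to diet was not shown to differ between depots for any of the 42 genes. The change in viAPs minus that in scAPs ran from -0.29 for Bop1 to 0.61 for Utp4, with a median of 0.05, and 0 genes passed (limma, smallest adjusted p = 0.71), nor did any reach an unadjusted p under 0.05. Among all probe sets 0.00459% of probe sets passed with a higher and 0% with a lower change in viAPs. For Utp4 the difference had a standard error of 0.32, and for Nop14, at 0.49, of 0.28, and neither passed (adjusted p = 0.72 and 0.74, limma). Between the depots on SD 0 genes passed (limma, 2 at an unadjusted p under 0.05, smallest adjusted p = 0.34), where the background was also 0%. The differences ran from -0.40 to 0.36, viAPs minus scAPs. Without SD viAP 4, 0 genes passed on SD (limma, 3 at an unadjusted p under 0.05, smallest adjusted p = 0.16), while of all probe sets 109 were then higher and 94 lower in viAPs. On HFD 0 genes passed (2 at an unadjusted p under 0.05, smallest adjusted p = 0.27) beside 1.07% of all and 1.08% of well expressed probe sets higher in viAPs, and 0.436% and 0.588% lower. The differences ran from -0.28 for Imp3 to 0.46 for Nolc1. These comparisons share arrays with each other and with the diet comparisons.

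The arrays of a group were not equally far from the mean, and the SD arrays varied most. The genes' median difference from their 8-array mean was -0.02 on SD scAP 1 and -0.27 on SD scAP 2, and -0.07 on SD viAP 3 and -0.21 on SD viAP 4. On the HFD arrays it was 0.23 and 0.16 in viAPs and 0.07 and 0.17 in scAPs. Well expressed probe sets had 0.02, -0.17, -0.13 and -0.18 on the same SD arrays in that order. SD viAP 4 held the lowest value of 15 of the 42 genes and SD scAP 2 of 12, while HFD viAP 5 held the highest of 12. In SD viAPs 31 genes were higher on array 3 and 10 on array 4, and in SD scAPs 30 were higher on array 1 and 11 on array 2.

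The choice of SD viAP array therefore moved the size of the diet change. Against SD viAP 3 alone the median change was 0.16, and against SD viAP 4 alone 0.43, while the well expressed probe sets had 0.28 and 0.31. Both HFD viAP arrays lay above SD viAP 3 for 33 of the 42 genes (78.6%) and above SD viAP 4 for 37 (88.1%), beside 71.7% and 71.6% of the well expressed probe sets. Without SD viAP 4, 0 of the 42 genes passed in viAPs (limma), and of all probe sets 198 rose and 21 fell. Without SD viAP 3, 7 genes passed, 5 of them among the 10. Without HFD viAP 5 or HFD viAP 6, 0 genes passed, and of all probe sets 0 and 3 rose. With 1 array left in a group its spread is taken from the other groups. The change kept its sign in each of the 10 genes when any 1 of the 8 arrays was left out, and ran from 1.04 to 1.56 for Nop14 and from 0.45 to 0.93 for Ncl.

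A second list of 122 further ribosome biogenesis genes, of which 117 were measured, placed these genes in their pathway. In viAPs 7 of the 117 rose and 0 fell, with a median change of 0.18, and in scAPs 2 rose and 0 fell, with a median of 0.10. The 5.98% that rose in viAPs lay below the 8.45% of all and 20.6% of well expressed probe sets, and the 1.71% in scAPs lay between 1.06% and 2.67%. The medians of the well expressed probe sets were higher, at 0.30 and 0.18. The 117 genes were not filtered by level, so they are not matched to the well expressed probe sets. Without SD viAP 4, 0 of the 117 passed in viAPs (limma, 21 at an unadjusted p under 0.05), with a median of 0.07, and Dhx33 and Sdad1 had adjusted p-values of 0.088 and 0.086. Dhx33, a nucleolar helicase, was at 6.63 and 6.48 on SD and 7.67 and 7.46 on HFD in viAPs and rose by 1.01 (adjusted p = 0.013, limma). Sdad1, a large subunit factor, rose by 0.78 (adjusted p = 0.017), Riok3, a kinase of late small subunit particles, by 0.75 (adjusted p = 0.041), and Senp3, a nucleolar SUMO protease, by 0.74 (adjusted p = 0.022). The other 3 were Rbm28, Naf1 and Nmd3. On this list 5 of 44 large subunit factors, 1 of 9 snoRNP assembly factors and 0 of 35 processome factors rose in viAPs. In scAPs Naf1, an assembly factor of box H/ACA particles, rose by 0.97 (adjusted p = 0.030), and so did Tsr2, by 0.83 (adjusted p = 0.044). Of the 14 other snoRNA host RNAs on a separate list 3 were measured and 0 passed in either depot (limma, unadjusted p under 0.05: 1 of 3 in viAPs and 0 in scAPs).

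Myc, the transcription factor that is known to drive this pathway, was at 11.75 and 11.56 on SD and 12.37 and 12.33 on HFD in viAPs, and at 11.61 and 11.52 on SD and 12.23 and 12.02 on HFD in scAPs. All HFD arrays were above all SD arrays. It rose by 0.70 in viAPs (standard error 0.14, adjusted p = 0.020, limma), and 0.56 in scAPs did not pass (adjusted p = 0.085). Of the 11 genes of its network of partners and antagonists 2 rose in viAPs, Myc and Mxd4, an antagonist (by 0.82, adjusted p = 0.0091), and 0 in scAPs, where 3 had an unadjusted p under 0.05. Among the well expressed probe sets 20.6% rose in viAPs, and among all 8.45%. The network's median change in viAPs was 0.20, below the 0.30 of the well expressed probe sets. Of the 11, 0 passed in viAPs without SD viAP 4 (limma, 2 at an unadjusted p under 0.05), and Myc and Mxd4 had changes of 0.60 (adjusted p = 0.095) and 0.76 (adjusted p = 0.055).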

How the data were processed

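The deposited table holds, for 35556 probe sets, the authors' RMA intensity on each array, linear and in whole numbers. The submitters' notes name RMA and Affymetrix Expression Console 1.1, the paper's methods an R package with quantile normalisation, and neither states the antilog. Values were converted to log2. The annotation gave 21789 probe sets 1 symbol, 1621 several and 12146 none; only the first were tested. Of these, 21698 were found by Entrez ID in the reference, which changed 0 symbols.

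Group means over the 8 arrays were fitted with limma 3.58.1 in R 4.3.3 (4 residual and 4.58 prior degrees of freedom), with Benjamini-Hochberg adjustment over all 21789 probe sets and a call at an adjusted p under 0.05 with no minimum fold. The methods' filter on level and variability was an alternative, since it keeps genes by how much they differ. There were 6 comparisons. The 7315 probe sets that exceeded 7 (log2) on 3 or more arrays, called well expressed, served as a background. The number of arrays limits the precision. The procedure was tested on simulated data. Plots used Python 3.11.15 and matplotlib 3.10.9.

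The genes, lists and tests were chosen with earlier results of these data known. Given with a value for every array were, by rule, the 2 genes of each role with the largest change in viAPs, every gene called in scAPs, Fbl, Ncl, Npm1, Polr1b and Myc. Nop16, Wdr43, Utp20 and the snoRNAs were chosen after their values were seen. Promoter sequences are from RefSeq (GRCm38.p6), where 40 of the 45 genes matched.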

Additional observations from a re-analysis of the deposited data

Results flagged for a closer look

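Ppan, a large subunit factor, was read only by a probe set that also carries the symbol B130055M24Rik and was therefore not used. Its signal in viAPs was higher on HFD than on SD by 0.26 on the log2 scale, with 6.83 and 6.74 on SD and 6.95 and 7.15 on HFD, and in scAPs by 0.08. This difference was not tested, and the share of either gene in the signal cannot be told apart.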

How the results depend on the processing

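No paired analysis was possible because the replicate numbers run from 1 to 8 and no 2 groups share one. The count of 10 genes higher in viAPs became 0 when only the 4 arrays compared were fitted and 2 after a second quantile normalisation of the deposited values, and ran from 0 to 8 when 1 array was left out. It was 9 of the 12 genes inside the methods' filter, and 8 of these were among the 10. That filter holds 3076 probe sets kept in part by how much they vary. Counts inside it, in either depot, are therefore not read as a result about the genes. The second normalisation moved the median of the well expressed probe sets from 0.30 to 0.005 in viAPs and from 0.18 to -0.004 in scAPs, and that of the genes to 0.13 and 0.11. Over the whole table, 644 probe sets were then higher and 338 lower in viAPs, in place of 1841 and 424 (2274 and 275 with each array centred on its median), and 33 and 7 in scAPs, in place of 231 and 24. The 1 gene called in scAPs became 5 under the methods' filter and 5 under its level part alone, 2 with 16 added to each value, 2 with median centring, 0 with only the 4 arrays compared, 0 after the second normalisation, and 0 to 0 with 1 array left out. For diet averaged over depots 12 became 7 after the second normalisation and 4 to 17 with 1 array left out. The counts for the difference between depots and for both depot comparisons were 0 under each alternative run. The median change in viAPs was 0.73 over the genes inside the methods' filter (0.63 over its probe sets), which selects on variability, and 0.16 to 0.43 with 1 array left out. In scAPs it was 0.55 (0.40) and 0.13 to 0.37. Directions turned 12 times for named genes, each time for a change that had not passed. In viAPs these were Nop10 (-0.18, second normalisation) and Polr1b (0.021 with centring, -0.12 to 0.032 with 1 array left out). In scAPs Nop10 and Ftsj3 had -0.021 and -0.025 after the second normalisation. With 1 array left out, changes in scAPs ran from -0.13 to 0.48 for Nop10, -0.20 to 0.47 for Ftsj3, -0.047 to 0.31 for Rrp12, -0.00018 to 0.77 for Utp4 and -0.24 to 0.087 for Polr1b. In the other comparisons of settings named genes kept their direction, 435 times on the same side of the threshold. The causes were not tested. Nop58, Ddx21, Nop14 and Gas5 kept their call in viAPs in 5 of 8 fits that left out 1 array, and Utp20 in 0 of 8. Dim signals limit Utp20 and Ltv1, which were not above a log2 level of 7 on 3 arrays.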

Other observations

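Npm1 was also read by 3 brighter probe sets that share their symbol with Gm15484 and were left out of all tests. Their HFD means exceeded their SD means by 0.42, 0.19 and 0.10 on the log2 scale in viAPs and by 0.65, 0.64 and 0.35 in scAPs, beside 0.44 and 0.58 for the Npm1 probe set used.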
